A study of Drosophila melanogaster with 3 samples.

Results

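The nuclear genes for the protein subunits of the mitochondrial ribosome were examined in a map of chromatin bound by nautilus (nau), a basic helix-loop-helix factor of the MyoD family, in whole Drosophila melanogaster embryos. Members were the protein-coding genes of the BDGP6 annotation whose symbol is mRpL or mRpS followed by a number. The rule was chosen with earlier results of these data known, but itself uses no binding value. This gave 73 of the 13945 protein-coding genes, of which 47 encode proteins of the large subunit (mRpL) and 26 proteins of the small subunit (mRpS). The series has 1 group of 3 biological replicates: pooled male and female embryos, collected at 4 to 24 h, from the transgenic strain nau-GFP, in which a C-terminal GFP is fused to nau. Sonicated chromatin of 200 to 800 bp was precipitated with an antibody to GFP and sequenced. No other condition was compared, so members are set against other genes. Whole embryos were used, and nau is known from muscle precursors, a small part of the embryo's cells. A weak region could be weakly bound in many nuclei or strongly in few, and these cannot be told apart.

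The mitochondrial ribosome translates the few proteins that the mitochondrial genome encodes, which in the fly are subunits of the respiratory chain and the ATP synthase. Its RNAs are made in the mitochondrion, whereas its proteins are encoded in the nucleus, made in the cytosol and imported. Developing muscle is a tissue in which mitochondria are abundant. MyoD-family factors bind E-boxes, DNA words of the form CANNTG, and the palindrome CAGCTG is among those they are best known for. Each deposited region has a signal value, a number by which the authors scored its enrichment and whose scale is not stated, and a summit, the base of highest signal. The authors listed 30000 candidate regions for each replicate and for the pooled replicates. They also kept 3767 regions by the irreproducible discovery rate (IDR), which compares the order of regions between replicates, and these were the 3767 strongest of the pooled list. Regions are described here by rank in signal value, 1 being the strongest. A gene is said to have an IDR summit when one lies within the gene or no more than 2 kb upstream of it. Read depth is not given in the files used, and intervals cover counting error only.

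The 3 sequences below lie around IDR summits upstream of members and are shown because they span the range of what was found there. They come from the Release 6 (dm6) assembly of RefSeq, 5′ to 3′ on the strand of the member. Capitals mark E-boxes (CANNTG), the forkhead word TAAACA and the DNA replication-related element TATCGATA, which binds the factor Dref. The summit is base 101 of each. The first is chr2L:13835357-13835557, minus strand, upstream of mRpS23, the strongest of all member summits. The second is chr3R:31252696-31252871, plus strand, at mRpL32, cut where the annotated transcript begins. The third is chr2L:10386342-10386542, plus strand, upstream of mRpS7.
mRpS23: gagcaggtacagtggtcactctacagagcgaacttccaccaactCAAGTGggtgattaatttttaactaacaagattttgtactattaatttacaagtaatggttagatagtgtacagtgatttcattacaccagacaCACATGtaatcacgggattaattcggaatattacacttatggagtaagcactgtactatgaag
mRpL32: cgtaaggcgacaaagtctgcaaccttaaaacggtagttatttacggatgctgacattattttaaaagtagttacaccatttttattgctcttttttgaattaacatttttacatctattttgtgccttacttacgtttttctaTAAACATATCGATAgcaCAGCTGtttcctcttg
mRpS7: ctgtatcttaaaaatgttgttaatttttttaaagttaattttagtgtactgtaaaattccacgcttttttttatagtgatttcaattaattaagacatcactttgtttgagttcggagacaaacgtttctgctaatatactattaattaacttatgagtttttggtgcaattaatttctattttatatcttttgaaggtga
The mRpS23 stretch had the E-boxes CAAGTG at bases 45 to 50 and CACATG at bases 139 to 144, neither of them the MyoD-family palindrome. In the mRpL32 stretch TAAACA (bases 144 to 149), TATCGATA (150 to 157) and CAGCTG (161 to 166) followed each other within the last bases before the transcript. The mRpS7 stretch held none of the 7 words searched for. A match is a description of the letters and not a bound site.

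Of the 73 members, 14 (19.2%, 95% Wilson interval 11.8 to 29.7) had an IDR summit, against 17.9% of all protein-coding genes. In this window the share of members was close to the background. Large-subunit genes had a summit in 10 of 47 cases (21.3%, 12.0 to 34.9) and small-subunit genes in 4 of 26 (15.4%, 6.15 to 33.5), with intervals that overlapped over most of their length. The window of a gene grows with the gene, and members are short, with a median length of 909 bp against 2166 bp for all genes. Among genes within the members' length range of 390 to 13391 bp, 13.9% had an IDR summit. In genes of at most 2000 bp, which include all but 3 members, 14 of 70 members (20.0%, 12.3 to 30.8) had one. The share of all genes of that size was 8.94%. These genes were not matched to members for a transcription start on the opposite strand within 1000 bp upstream. Among genes of any length with such a start, 24.1% of members and 21.1% of all genes had an IDR summit. The comparison with short genes was added after the data were seen. When IDR regions were required to match the strongest of 2 replicates, leaving out the other, 6 members remained without replicate 1, 8 without replicate 2 and 6 without replicate 3 (8.22, 11.0 and 8.22%), against 12.8, 13.2 and 12.7% of all genes. A summit within 500 bp of an own transcription start site (TSS) was present at 10 of 73 members (13.7%), against 10.6% of all genes.

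**Figure D1:**
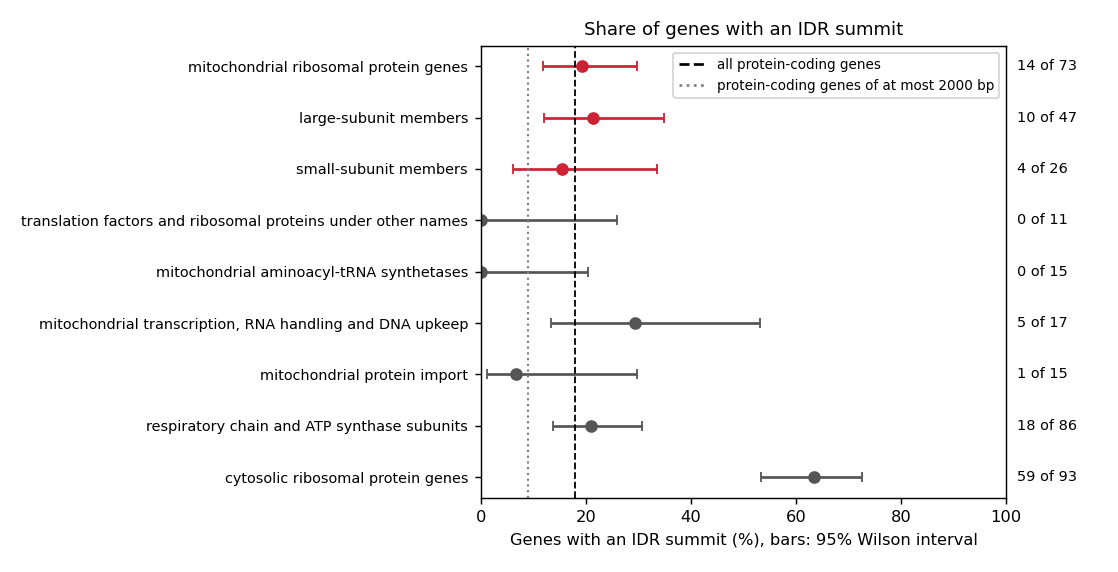
Share of genes with an IDR summit (%, x axis) for members, for each subunit and for comparison lists (y axis), points with 95% Wilson intervals. The 73 members (14 with a summit, 19.2%) sit beside the dashed line of all protein-coding genes (17.9%), to the right of the dotted line of genes of at most 2000 bp (8.94%), whereas cytosolic ribosomal protein genes stand at 63.4%.

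The strongest member region lay between mRpS23 and CenG1A. mRpS23 encodes a protein of the small subunit, and CenG1A a GTPase-activating protein for Arf. The region, at chr2L:13835281-13835678, ranked 15 of 3767 with a pooled signal value of 1653. Its summit was 385 bp upstream of mRpS23 and 107 bp from the TSS of CenG1A. In replicates 1, 2 and 3 it ranked 14, 15 and 16, with signal values of 547, 493 and 614 and a mean rank of 15 ± 1.00 (SD, n = 3). This was the smallest spread of rank among the 10 members whose strongest summit was matched in each replicate.

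mRpL41, a large-subunit protein with no known bacterial counterpart, came next at rank 36 (signal value 1291; chr2R:15217561-15217945). Its summit lay 103 bp upstream of the gene with no other TSS within 500 bp. It ranked 28, 48 and 40 in replicates 1, 2 and 3, with signal values of 449, 361 and 469 (mean rank 38.7 ± 10.1, SD, n = 3). mRpL23, whose bacterial counterpart lines the exit of the peptide tunnel, had a region of rank 111 (signal value 936; chr3L:2373435-2373788). The summit fell in the 5′ UTR of mRpL23, 56 bp downstream of its nearest TSS and 106 bp from that of CG9004 on the other strand. Replicates 1, 2 and 3 ranked it 149, 114 and 97, with signal values of 276, 284 and 373 (mean rank 120 ± 26.5). These 3 regions stood among the strongest in each replicate.

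Below them came a gap: the next member region ranked 977. Of the 14 members with a summit, 3 (21.4%) had one of rank 111 or stronger, against 6.17% of all genes with an IDR summit. That rank was picked as the third member's own, after its value was seen, and the share describes only where the gap falls. The median rank of the strongest summit was 2354 for members and 1396 for all genes with one, so that most member regions lay in the weaker part of the list.

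mRpL34, a small protein of the large subunit, was the one member with 3 IDR summits, and it shares its upstream sequence with Dystroglycan (Dg), a matrix receptor of muscle and epithelia. The strongest of them (rank 977, signal value 351; chr2R:16098453-16098912) lay 265 bp upstream of mRpL34 and 119 bp from the TSS of Dg. Replicates 1, 2 and 3 ranked it 647, 1399 and 1534, with signal values of 143, 97.9 and 108. The other summits, of rank 1773 and 1898, lay 61 and 1136 bp upstream of mRpL34, the more distant one in an intron of Dg. mRpL33, another small large-subunit protein, had the only other pair of summits, of rank 2291 (signal value 220.2; chrX:4322599-4323058) and 2875. Both fell in norpA, the phospholipase C of phototransduction, 598 and 1966 bp upstream of mRpL33. Its stronger region ranked 2458, 2544 and 3284 in replicates 1, 2 and 3, with signal values of 72.4, 73.0 and 72.4, and was among the strongest 3767 of each.

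mRpL32 and mRpL20 encode large-subunit proteins of bacterial descent, and their regions were uneven between replicates. The mRpL32 region (rank 1057, signal value 337; chr3R:31252566-31253025) had its summit 76 bp upstream of mRpL32 and 188 bp from qless, which encodes an enzyme of coenzyme Q synthesis. It ranked 864 in replicate 1 and 764 in replicate 3, with signal values of 124 and 155. In replicate 2 the nearest summit within 100 bp ranked 27193 (signal value 15.3), and the strongest anywhere in the gene's window ranked 3977. The mRpL20 region (rank 1538, signal value 272; chr3L:13018105-13018234) lay 253 bp upstream, 146 bp from the methyltransferase gene Icmt. Its ranks were 1224, 3997 and 2147 in replicates 1, 2 and 3, with signal values of 105, 57.4 and 91.8. Replicate 2 was thus the weak one for both genes. mRpL2, whose bacterial counterpart sits at the peptidyl transferase centre, had the reverse pattern. Its region (rank 2418, signal value 214; chr3L:11119870-11120329) lay 747 bp upstream in an intron of the forkhead gene FoxK and ranked 27085, 1397 and 2998, with signal values of 16.9, 97.9 and 76.3. In replicate 1 the strongest summit in the mRpL2 window ranked 2659.

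The other 6 members with an IDR summit ranked between 2868 and 3375. mRpS16 (rank 2868, signal value 195; chr2R:14174922-14175381), a small-subunit protein, had its summit 1556 bp upstream in an intron of combgap (cg). It ranked 3776, 4631 and 2903 in replicates 1, 2 and 3, with signal values of 57.8, 53.1 and 77.5. mRpL53 (rank 2881, signal value 195; chr2R:13953911-13954370), a large-subunit protein, had its summit 54 bp upstream, in an intron of Argonaute 1 (AGO1), and shares its start with CG33155. That region ranked 2477 in replicate 1 and 3797 in replicate 3 (signal values 72.2 and 67.3), and replicate 2 had no summit within 100 bp. The summits of mRpL11 (rank 3003, 270 bp upstream), mRpS7 (rank 3338, 220 bp upstream) and mRpS22 (rank 3368, 198 bp upstream) had no match within 100 bp in replicate 2 either, and that of mRpS22 had none in replicate 1. Elsewhere in their windows replicate 2 had summits of rank 7753 (mRpL11), 5296 (mRpS7) and 4003 (mRpS22). Replicate 1 had one of rank 5868 in the mRpS22 window. The neighbours of mRpL11, mRpS7 and mRpS22 are the mitochondrial protease gene HtrA2, the mitotic kinase gene Cdk1 and CG5003. mRpL22 (rank 3375) was called through a summit 1575 bp upstream, in an intron of inflated (if), an integrin alpha subunit used in muscle attachment. Just inside the end of the list were thus mRpL22 and mRpS22, and just outside it, in the pooled list, were mRpS6 (rank 3849), mRpL21 (rank 3886) and mRpL27 (rank 4067).

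**Figure D2:**
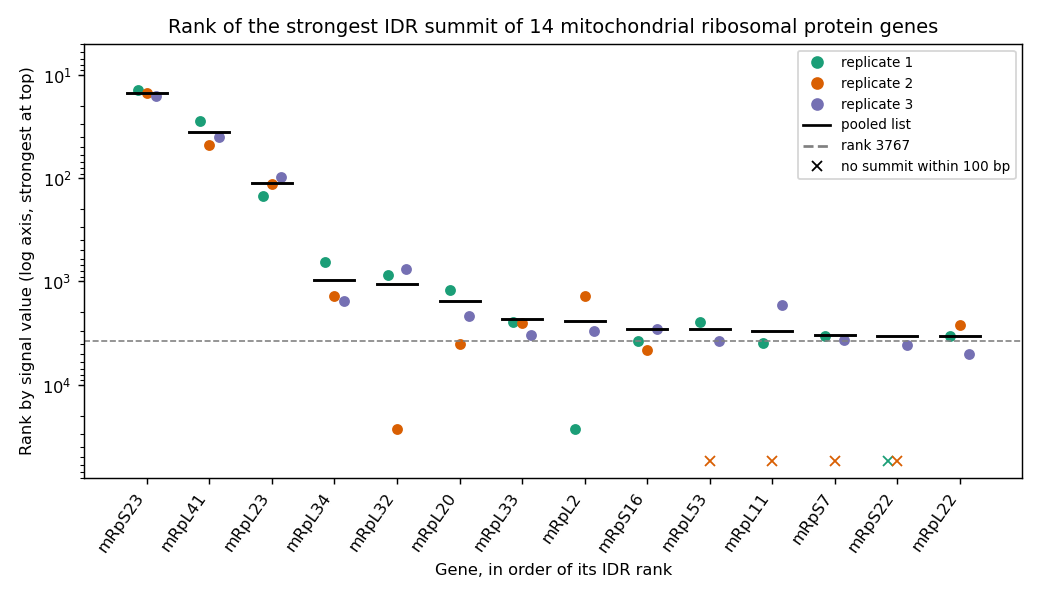
Rank by signal value (log axis, strongest at the top) of the strongest IDR summit of each of 14 members (x axis), points for replicates 1 to 3, black bars for the pooled list, crosses where a replicate has no summit within 100 bp. mRpS23, mRpL41 and mRpL23 keep ranks of 149 or stronger in each replicate. mRpL34 and mRpL33 stay above the dashed line at rank 3767 in each replicate, and the other 9 members cross it or lack a match in at least 1.

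Replicates were compared by the 3767 strongest regions of each, so that each had the same number of regions. Members with a summit among them numbered 15, 9 and 15 in replicates 1, 2 and 3, a mean of 13 ± 3.46 (SD, n = 3) or 17.8% ± 4.75 of members. The shares of all genes were 19.2, 18.6 and 19.0%, a mean of 18.9% ± 0.297, which lay within the members' spread. For the large subunit the counts were 12, 7 and 8, and for the small subunit 3, 2 and 7, so neither subunit stood above the other in a steady way. Among the strongest of all 3 replicates were 6 members (8.22%), against 13.3% of all genes. A further 7 (9.59%, against 5.16%) were among those of exactly 2, 7 (9.59%, against 6.52%) of exactly 1 and 53 (72.6%, against 75.0%) of none. With a pooled summit matched within 100 bp in each of the full replicate lists there were 19 members (26.0%), against 26.8% of all genes. Of the 17 IDR summits of members, 13 were matched in all 3 replicate lists, where 87.4% of all IDR summits were.

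The remaining 59 members had no IDR summit. In 16 of them (27.1%, against 23.7% of all genes without an IDR summit) each replicate list held some summit in the gene's window: mRpL13, mRpL14, mRpL17, mRpL18, mRpL21, mRpL27, mRpL49, mRpL55, mRpS5, mRpS6, mRpS9, mRpS18B, mRpS21, mRpS26, mRpS28 and mRpS31. In 5 members (8.47%, against 9.79%) 2 lists held one (mRpL19, mRpL37, mRpS2, mRpS11 and mRpS25), and in 7 members (11.9%, against 10.6%) 1 list did (mRpL4, mRpL35, mRpL40, mRpL50, mRpS10, mRpS18A and mRpS18C). The other 31 had no summit in any list, 42.5% of members against 45.8% of all genes. They were 23 large-subunit genes (mRpL1, mRpL3, mRpL9, mRpL10, mRpL12, mRpL15, mRpL16, mRpL24, mRpL28, mRpL30, mRpL36, mRpL38, mRpL39, mRpL42, mRpL43, mRpL44, mRpL45, mRpL46, mRpL47, mRpL48, mRpL51, mRpL52 and mRpL54) and 8 small-subunit genes (mRpS14, mRpS17, mRpS24, mRpS29, mRpS30, mRpS33, mRpS34 and mRpS35). A gene outside these lists had no region among 30000, which does not show that nau is absent there.

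At 2 of these genes a replicate had a strong region that the pooled list lacked. mRpS10, whose bacterial counterpart is in the head of the small subunit, had a region of rank 36 in replicate 3 (signal value 479), 133 bp upstream of its TSS, and no summit in its window in replicate 1, replicate 2 or the pooled list. mRpS2, another small-subunit protein, had regions of rank 437 in replicate 1 (signal value 175, 124 bp upstream) and rank 919 in replicate 3 (signal value 142, 160 bp upstream), and none in replicate 2 or the pooled list. Both were picked out after their values were seen. Such regions occurred throughout the genome: of the strongest 3767 regions, 176 of replicate 1 (4.67%), 193 of replicate 2 (5.12%) and 175 of replicate 3 (4.65%) had no pooled summit within 500 bp. The IDR list, being the top of the pooled list, cannot hold any of them. A further 5 members without an IDR summit were among the strongest of 1 replicate each, at ranks of 2825 (mRpL27), 3101 (mRpL21) and 3104 (mRpL55) in replicate 1 and 3094 (mRpS28) and 3275 (mRpS9) in replicate 3.

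**Figure D3:**
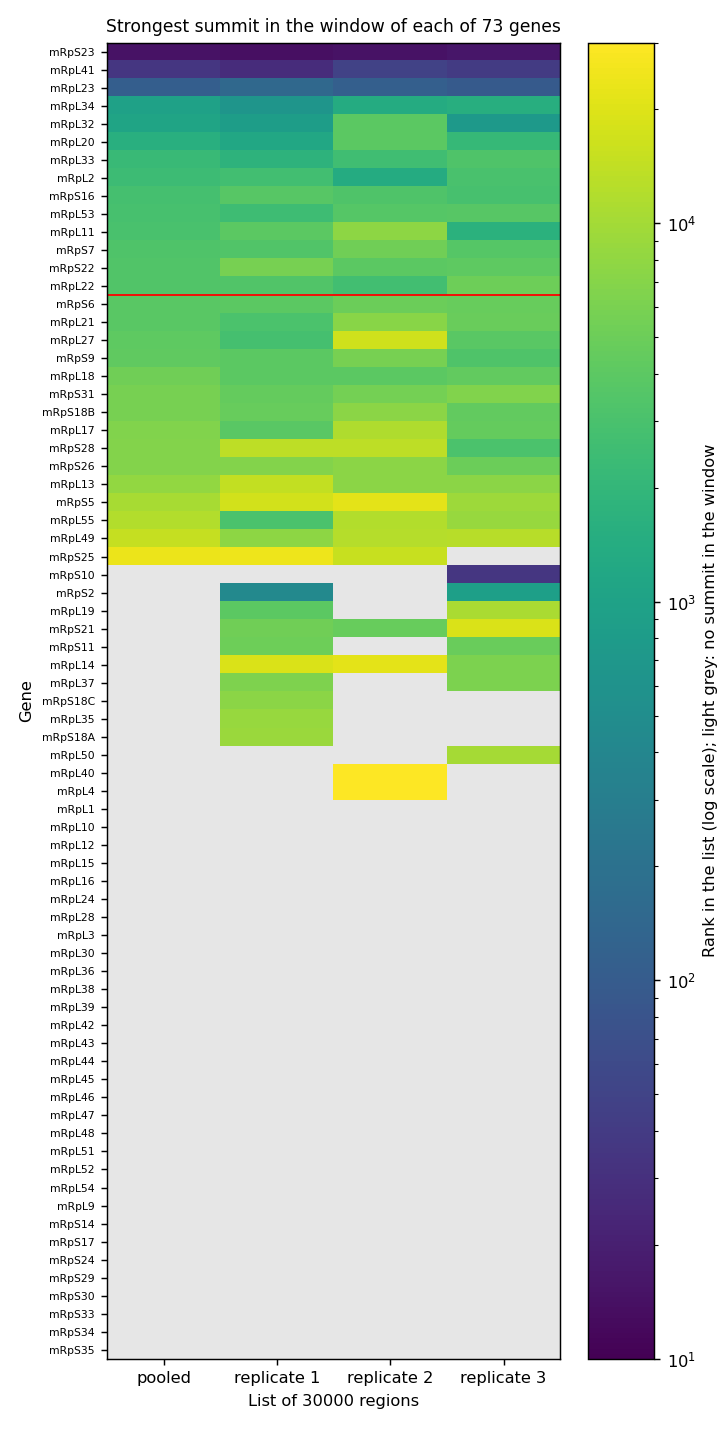
Rank of the strongest summit in the window of each of 73 members (rows) in the pooled list and in replicates 1 to 3 (columns), colour on a log scale from dark (strong) to yellow (weak), light grey where there is none. The 14 members above the red line have an IDR summit, the dark cells of mRpS10 and mRpS2 below it have no pooled partner, and 31 rows are grey throughout.

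Member summits lay upstream of the genes and close to a neighbour. The strongest summit was upstream of the own TSS at 13 members and downstream at mRpL23 alone. The window reaches 2 kb upstream, and members have a median length of 909 bp, so most of a typical member's window lies upstream. The share of upstream summits over all genes was not counted. Its median distance from the own TSS was 259 bp (range 54 to 1575), against 557 bp for all genes with an IDR summit and 305 bp for such genes of at most 2000 bp. At 12 of the 14 members (85.7%) a TSS of another gene lay within 500 bp of the summit, against 33.7% of genes with an IDR summit, and the exceptions were mRpL41 and mRpS16. The own TSS was the nearest at 4 members, 1 of them tied, and another gene's was nearer at 10. Assigning each summit to the nearest TSS left 5 of the 14 members (6.85% of all members, against 12.1% of all genes), all of the large subunit. They were these 4 and mRpL34, through its summit of rank 1773. Which gene of a pair a region acts on, if any, was not measured.

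**Figure D4:**
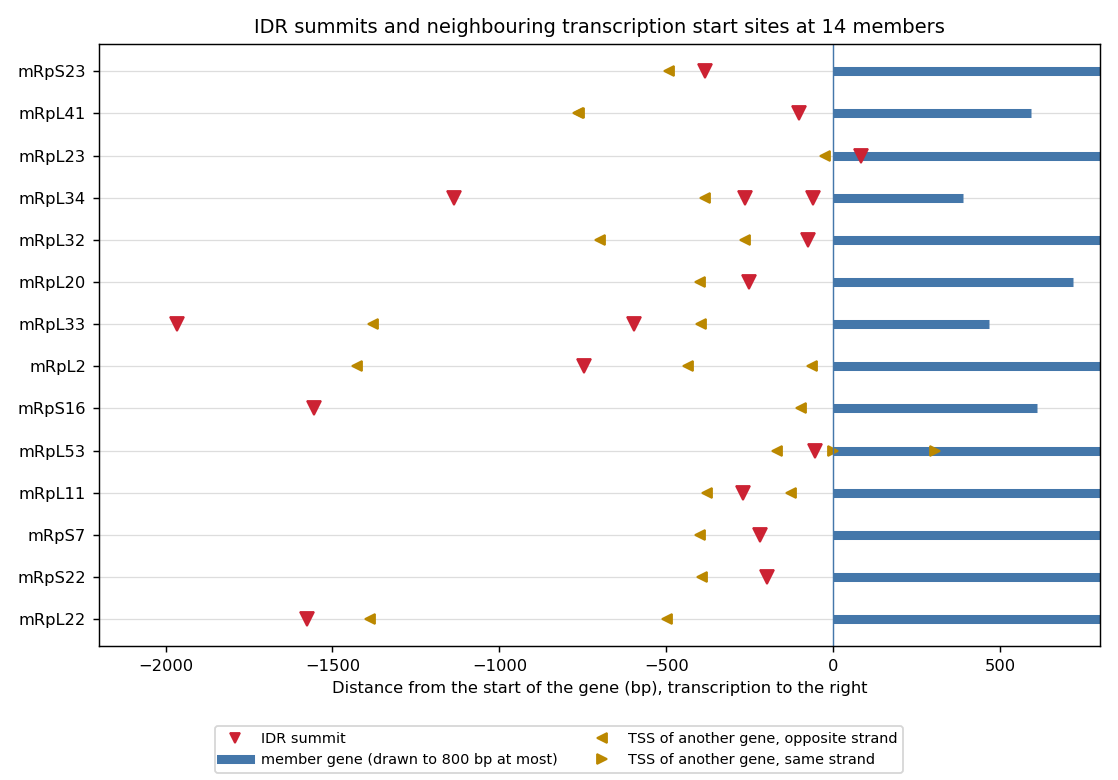
IDR summits (red triangles) around the start of 14 members (rows, strongest at the top), x axis in bp from the start of the gene with transcription to the right, blue bars for the member and arrowheads for TSSs of other genes. Summits lie left of the start except at mRpL23, and at 12 members within 500 bp of another gene's TSS.

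A close neighbour on the other strand was also common at members without a summit. A TSS on the opposite strand within 1000 bp upstream was found at 58 of 73 members (79.5%), against 35.2% of all genes. Examples without an IDR summit are mRpL18 with Taz, whose starts lie 20 bp apart, mRpS14 with Naa15-16 (21 bp) and mRpL46 with CG2021 (28 bp). All 14 members with an IDR summit were among the 58 (24.1%), against 21.1% of all genes with such a neighbour. Of the 15 members without one, 0 had an IDR summit, against 16.2% of all such genes. The Wilson interval for the 15 reaches up to 20.4% and so includes the background share, and no test was made.

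CAGCTG, the E-box named above for the MyoD family, was common in the promoters of members, whether or not a summit was found. Whether nau or another factor binds these copies of the word was not tested. Promoters were taken as 250 bp before to 50 bp after the start of the gene, and words were searched on both strands. It was present in 40 of 73 member promoters (54.8%, 43.4 to 65.7), against 17.7% of all promoters of this length. The share was 27 of 47 (57.4%) in the large subunit and 13 of 26 in the small subunit. The shares of the other 9 E-boxes in members were between 0.654 and 1.62 times those in all promoters, whereas that of CAGCTG was 3.10 times. For example, CAACTG was in 13.7% of member promoters and 20.9% of all, and CACGTG in 6.85% of member promoters and 4.24% of all. The excess was seen at promoters with a divergent neighbour (31 of 58 members, 53.4%, against 21.9% of all such genes) and at those without (9 of 15 members, against 15.4% of all such genes). The median GC share was 34.6% in member promoters and 37.9% in all promoters. These promoter counts were made after the data were seen.

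The word sat most often at the start of transcription. Its first base was within 25 bp of the gene start in 28 member promoters (38.4%), against 5.82% of all promoters, and within 50 bp in 35 (47.9%), against 9.34%. In the 25 bp from the start onward it was found in 26.0% of member promoters and 2.95% of all. The following 30-base sites, in the same assembly and on the strand of the gene with CAGCTG in capitals, are examples of this arrangement. The first 4 belong to members with an IDR summit and the next 5 to members with no summit in any list.
mRpL23: gtggttgacaatCAGCTGtttaaaacaagt
mRpL2: aacgccgcgtaaCAGCTGttttcagccgca
mRpL11: cagcaataccatCAGCTGttgctgcttctt
mRpL33: gataggcgcagtCAGCTGttcttcgttcct
mRpL46: tgtgccgcaaatCAGCTGttccggctctgg
mRpS35: agtttctgtaaaCAGCTGattgcttgctat
mRpS34: agccagccggcaCAGCTGttcgaccttccc
mRpL28: ttcacatacgaaCAGCTGttttttccaaac
mRpS33: gcacttggaaatCAGCTGtcgcttgttttt
They lie at chr3L:2373715-2373744 (mRpL23), chr3L:11120845-11120874 (mRpL2), chr3R:14511821-14511850 (mRpL11), chrX:4322207-4322236 (mRpL33), chr3L:1777425-1777454 (mRpL46), chr3L:2780875-2780904 (mRpS35), chr3L:16348064-16348093 (mRpS34), chr2L:4973979-4974008 (mRpL28) and chr3R:16436566-16436595 (mRpS33). The first base of the word is 28 bp upstream of the gene start in mRpL23, 5 bp upstream in mRpL11, 2 bp upstream in mRpL46 and 12 bp upstream in mRpS35. In the others it is downstream, by 10 bp in mRpL2, 7 bp in mRpL33, 2 bp in mRpS34, 15 bp in mRpL28 and 14 bp in mRpS33. The flanks were rich in A and T: 30 of 44 member sites (68.2%) had A or T next to the word on both sides, against 47.3% of sites in all promoters. AA before the word or TT after it was seen in 27 of 44 (61.4%), against 40.2%. The printed examples all have A or T on both sides and look more uniform than member sites as a whole. Sites at mRpL13, mRpL17, mRpL19, mRpL45, mRpL48 and mRpL55, for instance, have G or C on at least 1 side. A smaller peak lay far upstream: the bin of 25 bp from -250 bp held the word in 6.85% of member promoters and 1.25% of all. Its sites in mRpS2, mRpL24, mRpL54 and mRpL32 were 245, 237, 239 and 248 bp upstream. The opposite-strand neighbours of these members start 222, 218, 242 and 264 bp away. In mRpL51 the site was 227 bp upstream and the neighbour's start 31 bp away.

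**Figure D5:**
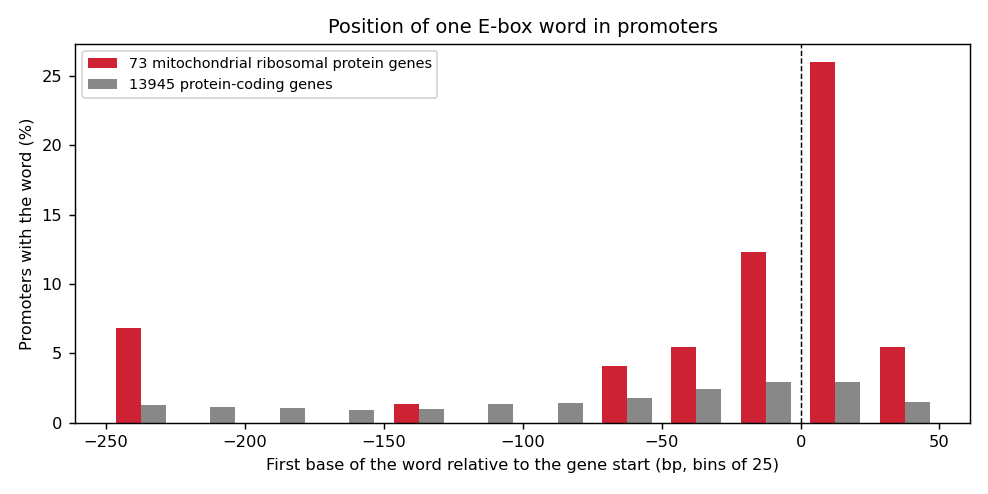
Promoters with CAGCTG (%, y axis) by the position of its first base relative to the gene start (bp, x axis, bins of 25), red bars for 73 members and grey bars for all 13945 protein-coding genes. The members' bars peak at the start of the gene, with 12.3% in the bin before it and 26.0% in the bin after it. All genes have 2.96% and 2.95% there. The bin from -250 bp holds 6.85% of members and 1.25% of all genes.

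Members with the word in the promoter did not have an IDR summit more often than members without it. An IDR summit was found at 7 of 40 members with CAGCTG in the promoter (17.5%) and 7 of 33 without it (21.2%). Over all genes the shares were 21.4% with the word and 17.1% without. Read from the summits, CAGCTG was in the promoter of 7 of 14 members with an IDR summit and 33 of 59 without (55.9%). Among the 7, the word was 62.5 bp from the summit at mRpL32, 72.5 bp at mRpL53, 96.5 bp at mRpL41, 108 bp at mRpL23 and 268 bp at mRpL11. At mRpL33 and mRpL2 it was 608 and 759.5 bp away, and there the summit belongs to another place in the window.

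Within 100 bp of the 17 member summits, CAGCTG was present at 5 (29.4%), against 15.1% of all IDR summits and 16.2% of those within 500 bp of a TSS. Within 50 bp it was present at 1. Member promoters held the word in 54.8% of cases, and summits were not compared with other stretches of member promoters. Any E-box was present at 13 (76.5%), against 66.0% and 64.5%. The forkhead word TAAACA was at 4 (23.5%, against 26.9% of all IDR summits), GAGAG, the word of the GAGA factor, at 2 (11.8%, against 28.0%) and TATCGATA at 1 (5.88%, against 1.59%). GGTCACAC, bound by M1BP, and GCATGCGC, the word of NRF1 and its fly relative ewg, were at 0. They were rare at all IDR summits too (1.35% and 0.425%). With 17 summits each of these counts moves by several percentage points with a single gene. In promoters, TATCGATA was in 20.5% of members and 9.37% of all genes, and GAGAG in 16.4% of members and 29.8% of all genes.

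Other genes of mitochondrial gene expression and of the cytosolic ribosome were counted in the same way. Genes for mitochondrial transcription, RNA handling and DNA upkeep had an IDR summit in 5 of 17 cases (29.4%, 13.3 to 53.1). They were led by SLIRP2 (rank 143) and SLIRP1 (rank 872), whose human relative SLIRP stabilises mitochondrial mRNA, and by mtDNA-helicase (rank 1328). None of 11 translation factors and ribosomal proteins under other names had one (upper limit 25.9%), and none of 15 mitochondrial aminoacyl-tRNA synthetases (upper limit 20.4%). Import genes had 1 of 15 (Tom7, rank 863). Subunits of the respiratory chain and the ATP synthase, many of them assembled with the products of mitochondrial ribosomes, had 18 of 86 (20.9%, 13.7 to 30.7), led by COX7C (rank 852), COX7AL2 (rank 986) and ATPsynC (rank 1488). Cytosolic ribosomal protein genes had 59 of 93 (63.4%, 53.3 to 72.5), among them RpL7 (rank 59) and RpS27 (rank 66). The interval of the members ended at 29.7%, below that of the cytosolic set. In the strongest 3767 regions of each replicate, members averaged 13 ± 3.46 genes of 73, respiratory subunits 17.3 ± 2.89 of 86 and cytosolic ribosomal proteins 61.3 ± 1.53 of 93 (SD, n = 3). The order was the other way round for the promoter word, since CAGCTG was in 9 of 93 cytosolic ribosomal protein promoters (9.68%, 5.18 to 17.4), below the members' 54.8%.

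Members with an IDR summit were spread over the chromosomes, with 2 of 12 on 2L, 4 of 12 on 2R, 3 of 17 on 3L, 3 of 21 on 3R and 2 of 11 on X. Over all genes the shares on these arms lay between 16.1% and 19.9%.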

How the data were processed

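Anti-GFP chromatin immunoprecipitation was sequenced in 3 biological replicates of nau-GFP embryos, per the labels. The antibody label names nau and the description anti-GFP, which was followed. The hours come from the source name, since the age label is not plausible. The authors deposited narrowPeak lists, and their signal value (column 7) was used to rank regions within a list. They also deposited the summit's offset from the region's start. Not given in the sources used here are the aligner, the peak caller and the cut-off for IDR. The lists on dm3 were not used.

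Positions are on dm6, 1-based. The annotation was BDGP6.54 of Ensembl (release 115), with 13945 protein-coding genes on 6 arms. A summit was matched to a replicate by the nearest summit within 100 bp. Sequences were read from RefSeq's Release 6 FASTA. No test was made: genes are not replicates, and replicate counts are mean ± SD (n = 3). Counting was tested on simulated lists. Every member with an IDR summit is named; the 10 strongest get coordinates and replicate values; up to 3 genes per comparison list are named, of which 1 is not reported here. Members and lists were chosen with earlier results of these data known, and 4 symbols of the lists matched no gene. The promoter counts of CAGCTG, its positions and flanks, the limit of 2000 bp and the replicate-only regions were chosen after the data were seen. Python 3.11.15, numpy 2.4.6, scipy 1.17.1 and matplotlib 3.10.9 were used.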

Additional observations from a re-analysis of the deposited data

How the results depend on the processing

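Of 67 alternative values computed for 17 results, 32 stayed within 1.5 times the value reported (for the median distance, within 1 SD between replicates) and 35 did not. Members with an IDR summit (14; large subunit 10, small subunit 4) numbered 1 in the gene body alone (large 1, small 0; 1.37% against 10.1% of all genes), 5 by nearest TSS (large 5, small 0; 6.85% against 12.1%) and 6 in the stronger 1883 IDR regions (large 5, small 1; 8.22% against 11.2%). Leaving out each replicate, with IDR regions required among the strongest of both others, gave 6 to 8 members (large 5 to 6, small 1 to 2). The counts were 6 without replicate 1, 8 without replicate 2 and 6 without replicate 3 (8.22, 11.0 and 8.22%, against 12.8, 13.2 and 12.7% of all genes). Members with an IDR summit within 500 bp of their TSS (10) then numbered 4 to 7, and 6 in the stronger 1883 regions, where the median distance (259 bp) was 178 bp. The mean count per replicate (13) was 7 with the strongest 1883 regions of each replicate and 26.7 with 2 times as many regions as in the IDR list. Members matched in all 3 replicate lists (19) fell to 12 at 50 bp. Of the 17 summits, CAGCTG was within 50 bp of 1 and within 200 bp of 8 (5 at 100 bp), TATCGATA of 0 and 2 (1), GAGAG of 1 and 4 (2) and TAAACA of 2 and 9 (4). CANNTG was within 50 bp of 7 (13) and GGTCACAC within 200 bp of 1 (0). The cause of these shifts was not tested. From the counts within 500 bp of a TSS to those of words, the same settings were not counted over all genes or IDR summits. Those shifts therefore have no background beside them and are not a result about members. CAGCTG was in 45, 38 and 41 member promoters (61.6, 52.1 and 56.2%) with a longer window, with 100 bp to either side of the start and with any transcript start, against 27.3, 13.8 and 22.3% of all genes. Read depth is unknown, which limits every statement on a missing summit.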

Other observations

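The promoter word CAGCTG was also frequent in 2 other lists of mitochondrial translation that had no IDR summit. It was in 7 of 11 promoters of translation factors and ribosomal proteins under other names (63.6%, 95% Wilson interval 35.4 to 84.8) and in 7 of 15 of mitochondrial aminoacyl-tRNA synthetases (46.7%, 24.8 to 69.9), against 17.7% of all promoters. Lists for other mitochondrial functions lay nearer to the background. The word was in 5 of 17 promoters of genes for mitochondrial transcription, RNA handling and DNA upkeep (29.4%, 13.3 to 53.1), in 4 of 15 of import genes (26.7%, 10.9 to 52.0) and in 20 of 86 of respiratory chain and ATP synthase genes (23.3%, 15.6 to 33.2). These shares were counted after those of the ribosomal proteins were known, and no test was made between lists.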
